A study of Mus musculus with 6 samples.

Results

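Metap1d, Fign, Fam171b, Mdk, Baz2b and Nup35 are 6 protein-coding genes of mouse chromosome 2 that lie within 20 Mb of Sp9, among 657 listed genes of that interval (Sp9 left out) and 34745 genes in the whole table. They were chosen by their position and on their higher counts in Sp9 null tissue in these same libraries. Their difference between the genotypes is therefore given as a description, without a test. All 6 passed the filter on low counts. Messenger RNA was measured by RNA-seq in the MGE (medial ganglionic eminence), an embryonic swelling of the ventral telencephalon that produces many cortical interneurons, at embryonic day 12.5. The groups were 3 Sp9-/- (null) libraries and 3 libraries of wild type littermates. Every sample had a mixed descent from C57BL/6J, 129S6 and CD1 mice. The labels give neither the construction of the null allele nor the number, sex or litter of the embryos behind a library, so the spread between libraries may be partly technical.

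The 6 genes have unrelated roles. Metap1d encodes a methionine aminopeptidase of mitochondria, which removes the first methionine of new proteins once a deformylase has acted on it. Fign encodes fidgetin, an AAA ATPase that severs microtubules, and Mdk encodes midkine, a secreted heparin-binding growth factor made abundantly by embryonic neural tissue. Baz2b encodes a bromodomain and PHD finger protein that binds chromatin and partners ISWI remodelling enzymes, and Nup35 encodes a component of the inner ring of the nuclear pore. Fam171b encodes a membrane protein of little known function. Sp9 is a zinc finger transcription factor of developing ventral forebrain neurons, and proteins of its family bind GC boxes in DNA.

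Since proteins of the Sp family bind GC boxes, the 250 bases before the start site are shown for the 3 genes with an entry in the RefSeq promoter table of GRCm38.p6, which are Metap1d, Fign and Baz2b. Capitals mark the GC box GGGCGG, searched on both strands. Of all 32851 promoter windows of the same length, 32.7% held at least 1 match. Metap1d held 1 match, which ended 17 bases before the start site (plus strand, chr2:71453088-71453337). The windows of Fign (minus strand, chr2:64098039-64098288) and Baz2b (minus strand, chr2:60125741-60125990) held 0 matches. The G and C content was 65.6% for Metap1d, 72.4% for Fign and 41.2% for Baz2b, against a median of 52.4% over all windows.
Metap1d promoter: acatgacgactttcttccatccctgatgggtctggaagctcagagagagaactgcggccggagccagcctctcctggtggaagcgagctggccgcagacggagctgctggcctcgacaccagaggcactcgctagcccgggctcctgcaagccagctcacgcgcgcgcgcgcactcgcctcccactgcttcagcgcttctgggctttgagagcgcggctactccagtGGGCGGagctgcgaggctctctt
Fign promoter: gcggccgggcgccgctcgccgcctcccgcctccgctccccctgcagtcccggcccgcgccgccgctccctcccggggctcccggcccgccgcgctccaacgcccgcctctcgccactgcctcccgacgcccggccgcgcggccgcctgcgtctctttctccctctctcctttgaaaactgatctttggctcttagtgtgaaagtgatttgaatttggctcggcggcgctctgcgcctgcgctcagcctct
Baz2b promoter: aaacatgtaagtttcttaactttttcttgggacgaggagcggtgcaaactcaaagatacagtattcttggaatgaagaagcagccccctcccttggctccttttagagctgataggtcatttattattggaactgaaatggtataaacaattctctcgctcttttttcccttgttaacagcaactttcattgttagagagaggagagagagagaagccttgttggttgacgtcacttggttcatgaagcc
The start site of the Metap1d window lies inside the gene as the deposited table draws it, and that of Baz2b lies well within the gene's interval, where GENCODE M21 lists 14 transcripts.

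Library totals ran from 6826447 to 10979280 counts. Sp9 had 89, 116 and 118 counts in null replicates 1, 2 and 3, against 1939, 2700 and 1870 in wild type replicates 1, 2 and 3 (log2 fold change -4.13, SE 0.14, edgeR quasi-likelihood adjusted p = 2.54e-05; exact two-sided permutation p = 0.1, the smallest that 3 against 3 allows). The 7 MGE markers together took 3002 to 3114 CPM (counts scaled to the library total) in null and 2815 to 2953 CPM in wild type libraries, without overlap, and each was counted in at least 1 library. They did not all differ in 1 direction. With the block Dlx2 (log2 fold change of that fit 0.39) and Gad2 (0.37) were called higher. Lhx6, a factor of MGE-derived interneurons, was called lower (-0.45, edgeR adjusted p = 6.01e-06). Lhx8 (-0.26), Olig2 (-0.09) and Nkx2-1 (0.15) were not called in that fit. Without the block 0 of these markers were called. The 6 microglial markers summed to 7.74 to 12.5 CPM in null and 29.0 to 33.3 CPM in wild type libraries, where the groups did not overlap. The 5 markers of pallial excitatory neurons summed to 1.0 CPM in null and 1.2 CPM in wild type replicate 2. In replicates 1 and 3 they summed to 24.0 and 43.7 CPM in null and to 15.9 and 21.4 CPM in wild type libraries. Most of the sum in replicates 1 and 3 was Tbr1, which lies 11.5 Mb from Sp9 on chromosome 2. With the block Tbr1 was called higher (log2 fold change 0.81, edgeR adjusted p = 0.0238). It was not called without the block (0.977), and its groups overlapped. The 4 endothelial markers gave 96.9 to 107 CPM in null and 97.1 to 111 CPM in wild type libraries. In bulk tissue, fewer cells of a type and less RNA per cell cannot be told apart. Whether any of these cell types takes part in the differences below was not tested.

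Of the 6 genes, 6 had every null value above every wild type value, as had 5.86% of the 14929 genes tested. Metap1d was the only member called higher without the replicate block, where 0.0469% of tested genes were called in that direction (edgeR quasi-likelihood test, Benjamini-Hochberg adjusted p under 0.05), and it was not called without wild type replicate 1. With the replicate number as a block, 6 of 6 were called, against 2.22% of tested genes. Because this contrast chose the genes, nothing is read from these counts. The median log2 fold change (Sp9 null over wild type, edgeR) was 0.68 over the 6 genes and -0.005 over all tested genes.

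Metap1d (ENSMUSG00000041921, chromosome 2, 71453276 to 71525194, GRCm38) had the widest gap of the 6. It was counted 681, 1143 and 950 times in null replicates 1, 2 and 3, against 375, 468 and 344 times in wild type replicates 1, 2 and 3. Scaled to the library totals, these were 99.8, 104 and 101 CPM in null and 39.3, 42.9 and 34.7 CPM in wild type libraries. The lowest null library stood 2.33-fold above the highest wild type library. The null values were also tightly grouped, with a coefficient of variation of 2.25% in null and 10.5% in wild type libraries. The log2 fold change was 1.40 (SE 0.10), a 2.64-fold higher level, and it was 1.33, 1.32 and 1.57 between the libraries of replicate numbers 1, 2 and 3. Only 2 other tested genes within 20 Mb of Sp9 had a larger log2 fold change.

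The Metap1d gene runs towards Dlx1, which encodes a homeodomain factor of developing interneurons, and overlaps Dlx1as, the antisense transcript of that locus. In GENCODE M21 the genes of Metap1d and Dlx1as share 8741 bases on opposite strands, and their exons share 0 bases. No label states whether the libraries kept the strand, so reads from the shared stretch cannot be assigned to a strand. Dlx1as averaged 452 ± 35.4 CPM in null and 282 ± 20.1 CPM in wild type libraries (SD, n = 3 each), a log2 fold change of 0.70 (SE 0.10), against 1.40 for Metap1d. For every 100 counts of Dlx1as, Metap1d had 22.8, 21.1 and 23.6 in null replicates 1, 2 and 3 and 13.3, 14.7 and 13.4 in the wild type replicates. The ratio did not overlap between the genotypes. Metap1d was chosen for its higher null counts, which enter the ratio, so this too is only a description. Dlx1as missed the threshold without the replicate block (edgeR adjusted p = 0.0511) and passed with it (1.02e-10). Dlx1 rose, with 1469 ± 69.8 CPM in null and 923 ± 62.6 CPM in wild type libraries (SD, n = 3 each). By edgeR its adjusted p was 0.0340, at 0.69 (SE 0.09) on the log2 scale, and 1.42e-10 with the block. Of the null libraries, leaving out number 1 (0.139) or 3 (0.101) ended the call without the block, and so did leaving out wild type library 1 (0.316), 2 (0.0874) or 3 (0.295).

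Fign (ENSMUSG00000075324, chromosome 2, 63971507 to 64098038) lies 9.17 Mb from Sp9, on the centromeric side. It reached 56.3, 49.8 and 61.9 CPM in null replicates 1, 2 and 3, against 34.8, 32.4 and 35.0 CPM in wild type replicates 1, 2 and 3. Its counts were 384, 547 and 584 in null and 332, 354 and 347 in wild type libraries. The wild type libraries were nearly level, with a coefficient of variation of 4.19%, while the null libraries spread by 10.8%. The log2 fold change was 0.74 (SE 0.10), or 1.67-fold. Replicate 2 was the lowest library in both genotypes.

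Fam171b (ENSMUSG00000048388, chromosome 2, 83812636 to 83883486) had 99.8, 82.3 and 116 CPM in null replicates 1, 2 and 3, and 64.2, 62.9 and 68.9 CPM in wild type replicates 1, 2 and 3. These rest on 681, 904 and 1096 counts in null and 612, 687 and 683 counts in wild type libraries. Its null libraries differed more among themselves than those of any other of the 6 genes, with a coefficient of variation of 17.0%, against 4.78% in wild type. The log2 fold change was 0.63 (SE 0.12) in the fit, and 0.63, 0.43 and 0.78 between the libraries of numbers 1, 2 and 3. The nearest tested gene on the distal side, the predicted Gm13698 at 72.2 kb, had 0, 77 and 1 counts in null replicates 1, 2 and 3 and 326, 436 and 334 in the wild type replicates. Gm13698 was thus at 0 or 1 count in null replicates 1 and 3 and had 77 in null replicate 2, where Fam171b was lowest among the nulls. Whether these are connected was not tested.

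Mdk (ENSMUSG00000027239, chromosome 2, 91929805 to 91932297) was the shortest gene, at 2.49 kb, and the farthest from Sp9, at 18.6 Mb. It had 105, 131 and 99.0 CPM in null replicates 1, 2 and 3, against 72.5, 92.8 and 66.5 CPM in wild type replicates 1, 2 and 3. The counts behind these were 715, 1436 and 934 in null and 691, 1013 and 660 in wild type libraries. The groups barely separated, since the lowest null value was 1.07-fold the highest wild type value. Libraries of the same number, in contrast, moved in parallel, and the log2 ratio of null to wild type was 0.52, 0.54 and 0.60 for numbers 1, 2 and 3. The log2 fold change of the fit was 0.55 (SE 0.16).

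Baz2b (ENSMUSG00000026987, chromosome 2, 59899363 to 60209839) is the longest of the genes, at 310 kb, and had the smallest difference. It had 243, 260 and 264 CPM in null libraries 1, 2 and 3, and 190, 198 and 185 CPM in the wild type libraries. With 1662, 2859 and 2493 counts in null and 1814, 2157 and 1839 counts in wild type libraries it was the most deeply counted. The spread was small, 4.33% in null and 3.22% in wild type libraries, so the log2 fold change of 0.44 (SE 0.08), or 1.36-fold, came with the lowest standard error of the 6 genes. Of the genes that overlap it, Gm13572 and Ldha-ps were counted 2 and 0 times over all libraries. Gm13620 shares 1.35% of the Baz2b exonic bases on the opposite strand and averaged 1.86 ± 0.35 CPM in null and 2.09 ± 0.40 CPM in wild type libraries (SD, n = 3 each).

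Nup35 (ENSMUSG00000026999, chromosome 2, 80617236 to 80658906) was the least counted, with 267, 356 and 273 counts in null replicates 1, 2 and 3 and 191, 232 and 182 in wild type replicates 1, 2 and 3. It stood at 39.1, 32.4 and 28.9 CPM in the null libraries, against 20.03, 21.3 and 18.4 CPM in the wild type libraries. Null replicate 1, the shallowest library, was the highest. The log2 fold change was 0.77 (SE 0.13), or 1.703-fold, the second largest of the 6. Dusp19, a phosphatase gene on the same strand, shares 131 exonic bases with Nup35, 3.89% of the Nup35 exons, in GENCODE M21, so some reads may be counted for either gene. Dusp19 averaged 9.38 ± 2.26 CPM in null and 6.34 ± 1.32 CPM in wild type libraries (SD, n = 3 each), with overlapping groups, and did not pass (log2 fold change 0.60, SE 0.25; edgeR adjusted p = 0.825, and 0.0931 with the block).

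**Figure D1:**
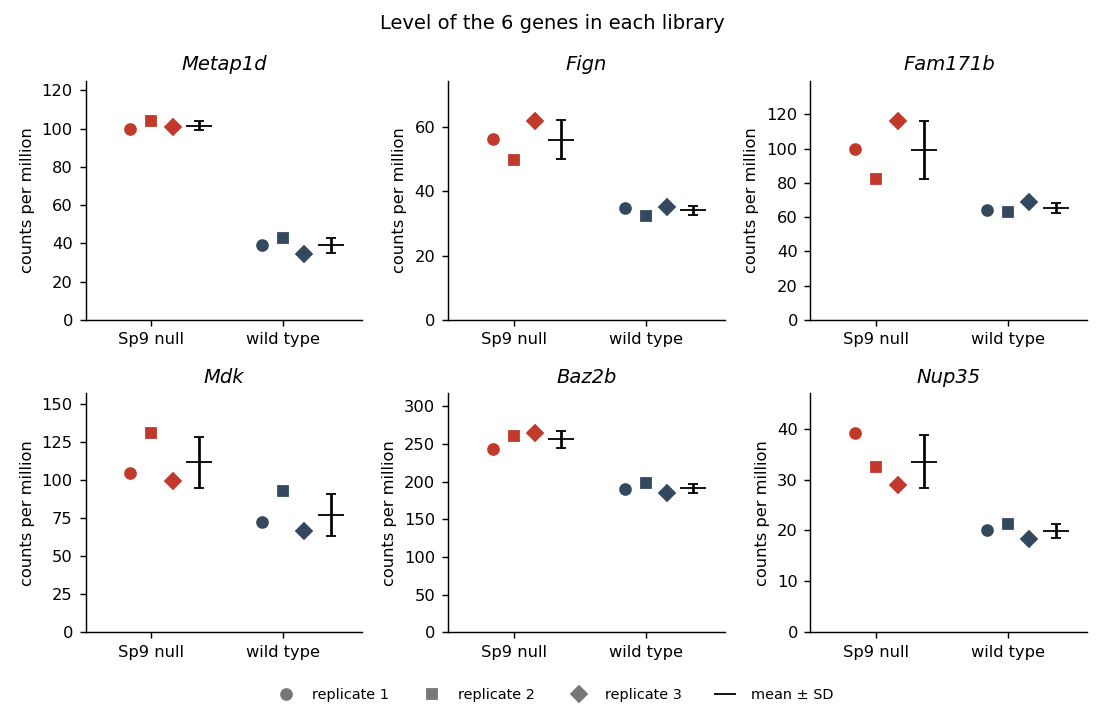
CPM (y axis, from 0) of the 6 genes in each library, with Sp9 null libraries left and wild type libraries right in each panel; symbols mark the replicate numbers and bars the mean and SD of 3 libraries. All 3 null points lie above all 3 wild type points in each panel, with the widest gap for Metap1d and the narrowest for Mdk, whose replicate 2 is highest in both genotypes.

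Compared per length, the genes kept a wide range of levels. FPKM, the deposited count scaled to gene length and library total, was 60.9 ± 9.25 in null and 42.2 ± 7.53 in wild type libraries for Mdk (SD, n = 3 each), which placed Mdk above 94.0% of tested genes in wild type. Fam171b followed with 16.7 ± 2.84 FPKM in null and 10.9 ± 0.52 FPKM in wild type libraries. Metap1d had 14.5 ± 0.33 FPKM in null and 5.55 ± 0.59 FPKM in wild type libraries. The other 3 genes had lower levels than these in null libraries. Baz2b had 11.2 ± 0.48 FPKM in null and 8.35 ± 0.27 FPKM in wild type libraries, and Nup35 had 7.17 ± 1.11 FPKM in null and 4.26 ± 0.31 FPKM in wild type libraries. Fign was the lowest, with 3.80 ± 0.41 FPKM in null and 2.31 ± 0.10 FPKM in wild type libraries. In wild type libraries the order was Mdk, Fam171b, Baz2b, Metap1d, Nup35 and Fign, and no neighbours in it overlapped in range. In null libraries Metap1d stood above Baz2b, and its range lay within that of Fam171b.

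The replicate number was not used to choose the genes and could be tested. The libraries with the same number in both genotypes differed from the other numbers for 22.8% of tested genes (edgeR quasi-likelihood F test of the number in a fit with genotype). Of the 6 genes, 2 passed that test, Mdk and Fam171b. Mdk was higher in replicate 2 than in the mean of replicates 1 and 3 by 0.40 in null and 0.42 in wild type libraries on the log2 scale (adjusted p = 6.92e-05). Fam171b was lower in replicate 2 by 0.35 in null and by 0.07 in wild type libraries (adjusted p = 0.0295), a call lost with the likelihood ratio test of DESeq2 (adjusted p = 0.419). Metap1d, Fign, Baz2b and Nup35 did not pass, with adjusted p of 0.371, 0.344, 0.573 and 0.299. Replicate 2 also had the lowest sum of pallial markers in both genotypes, 1.0 CPM in null and 1.2 CPM in wild type, and its part in the levels of Mdk and Fam171b was not tested.

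**Figure D2:**
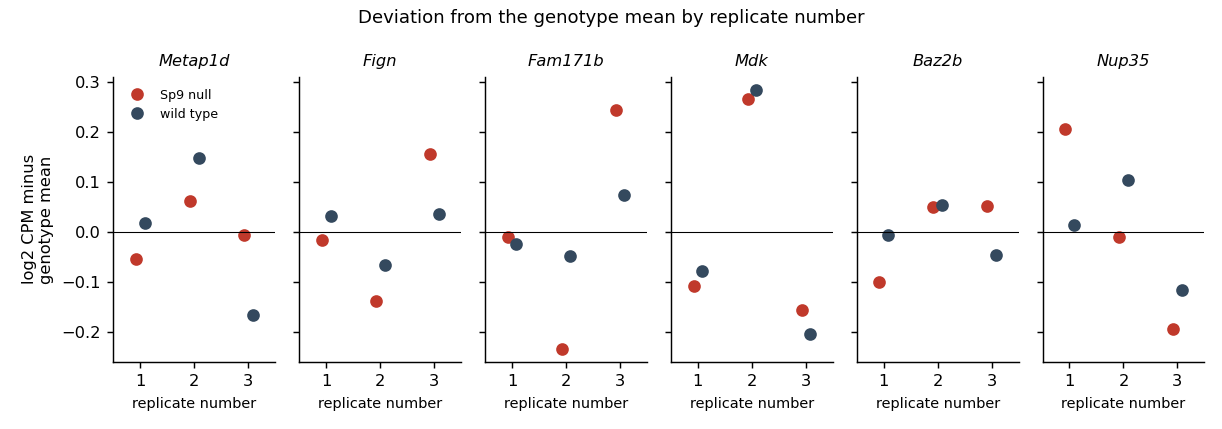
Deviation of each library from the mean of its genotype (y axis, log2 CPM) by replicate number (x axis) for the 6 genes, Sp9 null in red and wild type in dark blue. Mdk is high in replicate 2 of both genotypes, Nup35 is lowest in replicate 3 of both, and Baz2b is lowest in replicate 1 of the null and replicate 3 of the wild type libraries.

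The genes were set against the other genes of the interval. Of the 187 genes tested within 20 Mb of Sp9, 2 were called higher and 1 lower without the block, namely Metap1d and Dlx1, and Rprm, a gene of cell cycle arrest. Over all tested genes 0.0469% were called higher and 0.10% lower. Leaving out null replicate 2 gave 10 calls in the interval, leaving out wild type replicate 1 gave 0, and leaving out any other library gave 1. With the block 26 were called higher and 10 lower, against 2.22% higher and 1.78% lower over all tested genes. Leaving out the 6 described genes, 20 of 181 were called higher and 10 lower. Of the same 181 genes, 15.5% had every null value above every wild type value, against 5.86% over all tested genes. Every null value lay below every wild type value for 19 of the 181, against 921 of 13739 genes on other chromosomes. The median log2 fold change of these 181 genes was 0.07, while it was -0.005 on the other chromosomes. The median size of the change, whatever its direction, was 0.19 and 0.12.

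The share of genes called with the block differed along the chromosome. Within 2 Mb of Sp9, 29.6% of 27 tested genes were called, 7 higher and 1 lower. From 2 to 5 Mb the share was 17.5% of 40 genes, from 5 to 10 Mb 30.0% of 20 genes, and from 10 to 20 Mb 15.0% of 100 genes. From 20 to 40 Mb 7.46% of 134 genes were called, 4 higher and 6 lower. Farther along chromosome 2 the share was 3.0% of 868 genes, and on other chromosomes 3.81% of 13739 genes. The described genes were chosen for their shift and are counted in these shares. They made up 1 of the 8 calls within 2 Mb and 0 of the 7 from 2 to 5 Mb. From 5 to 10 Mb they were 2 of the 6 calls, and from 10 to 20 Mb 3 of the 15. Without them, 16.6% of 181 genes within 20 Mb were called. No enrichment test was made. What the position near the Sp9 allele contributes was not tested.

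**Figure D3:**
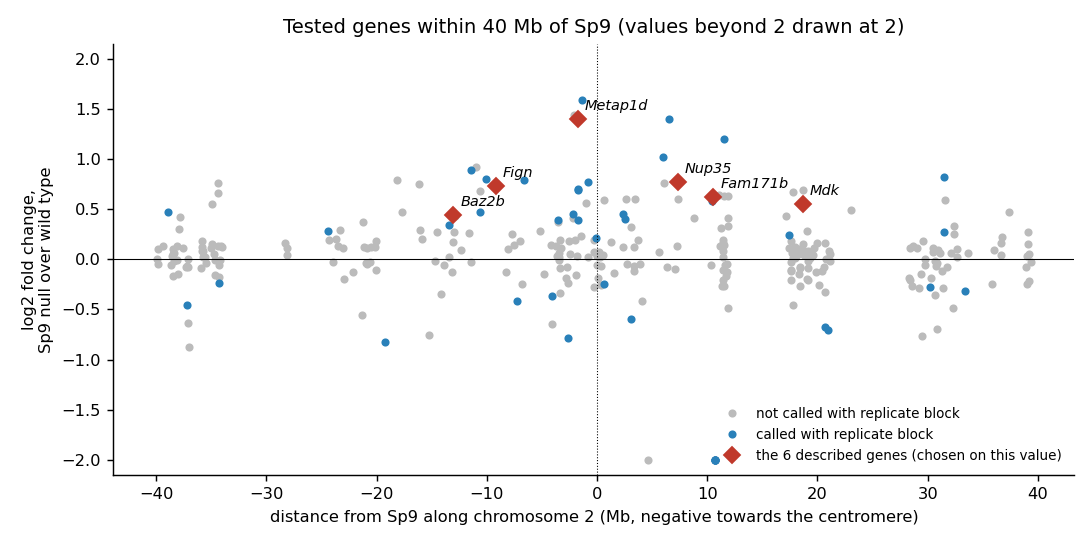
Log2 fold change of Sp9 null over wild type (y axis) of tested genes within 40 Mb of Sp9 by distance along chromosome 2 (x axis, Mb), with the 6 described genes as red diamonds other genes called with the replicate block in blue and the rest in grey; values past 2 in size are drawn at that limit. Called genes above 0 are frequent within 20 Mb, where 26 were called higher, the 6 included, and 10 lower, and sparse from 20 to 40 Mb, where 4 were called higher and 6 lower.

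The genes next to the described ones were examined as well. Of the 12 nearest tested genes, 1 to each side of each gene, Dlx1 alone was called without the block, where 0.0469% of all tested genes were called higher. In that fit 5 of the 12 had an unadjusted p under 0.05, among them Gm13698, which was lower in null libraries. With the block Dlx1, Kcnh7 and Itgav were called higher and 0 lower, against 2.22% higher and 1.78% lower over all tested genes. The median log2 fold change of the 12 genes was 0.14. The lowest was -3.73 (SE 1.08) for Gm13698 beside Fam171b, which was not called in either fit. Every null value of Gm13698 lay below every wild type value. Hat1, a histone acetyltransferase gene 11.7 kb from Metap1d on the side away from Dlx1, had a log2 fold change of 0.03 (SE 0.15) and overlapping groups. Chrm4, a muscarinic receptor gene 1.117 kb from Mdk, and Dgkz, a diacylglycerol kinase gene 0.527 kb on its other side, had 0.15 (SE 0.27) and 0.09 (SE 0.09), and their groups overlapped as well. Neither side of Baz2b was called, with 0.02 (SE 0.19) for Wdsub1 and 0.17 (SE 0.07) for March7, a ubiquitin ligase gene whose groups did not overlap. Beside Nup35, Nckap1, of the actin-regulating WAVE complex, had 0.14 (SE 0.07), also without overlap, and Zfp804a, a zinc finger gene, had 0.41 (SE 1.15).

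Kcnh7, a potassium channel gene 787 kb from Fign, averaged 51.5 ± 2.60 CPM in null and 30.0 ± 5.405 CPM in wild type libraries (SD, n = 3 each). Null exceeded wild type by 0.80 on the log2 scale (SE 0.14; adjusted p by edgeR 0.120, and 1.66e-06 with the block). On the other side of Fign, Grb14, a signalling adaptor gene, had -0.13 (SE 0.46). Itgav, an integrin gene 5.72 kb from Fam171b, averaged 25.0 ± 2.87 CPM in null and 17.0 ± 2.29 CPM in wild type libraries (SD, n = 3 each). The difference was 0.58 on the log2 scale (SE 0.15; adjusted p by edgeR 0.495, and 0.00258 with the block), a call lost with the block by DESeq2 (0.109) and without replicate 2 (0.105) or 3 (0.172) of both genotypes.

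At the limit of 20 Mb, Rprm was the last tested gene inside on the centromeric side, at 19.2 Mb, with -0.82 as its log2 fold change, and Arl6ip6 the first outside, at 20.1 Mb, with -0.10. On the distal side, Tspan18 lay just inside at 19.9 Mb with 0.17 and Cd82 just outside at 20.1 Mb with -0.26. Mdk, the outermost of the described genes, had 0.55.

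Relatives and partners of the 6 genes were called, with the block, about as often as tested genes at large. Of 82 tested family and partner genes, 0 were called without the block by edgeR, 2 had an unadjusted p under 0.05, and DESeq2 called 1. With the block 2 were called higher and 0 lower, and 17 had an unadjusted p under 0.05. Leaving out replicate 1, 2 or 3 of both genotypes, still with the block, gave 8, 1 and 1 calls. The median log2 fold change of the 82 genes was 0.001. Over all tested genes 2.22% were called higher and 1.78% lower with the block, and 0.0469% and 0.10% without it.

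Among 16 genes of methionine excision and N-terminal processing, 0 were called in either edgeR fit, and 0 had an unadjusted p under 0.05. Metap1, the cytosolic methionine aminopeptidase gene, averaged 70.4 ± 3.16 CPM in null and 65.9 ± 1.52 CPM in wild type libraries (SD, n = 3 each; log2 fold change 0.12, SE 0.08), without overlap. Metap2, of the other cytosolic enzyme, and Pdf, of the mitochondrial deformylase, had 0.06 (SE 0.08) and 0.05 (SE 0.18). Of 10 genes of fidgetin relatives and other microtubule-severing or related ATPases, 0 were called in either fit, with 0 and 1 at an unadjusted p under 0.05 without and with the block. Fignl2 had a log2 fold change of -0.10 (SE 0.25) at 2.94 ± 0.51 CPM in null and 3.17 ± 0.25 CPM in wild type libraries (SD, n = 3 each). Spast, encoding the severing enzyme spastin, had -0.01 (SE 0.10). The relatives Fam171a1 and Fam171a2 were not called, with 0.05 (SE 0.12) and -0.14 (SE 0.18). Fam171a2 had an unadjusted p under 0.05 with the block.

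Among 15 tested genes of the midkine family and its receptors, 0 were called without and 1 with the block. Unadjusted p was under 0.05 for 2 of them without and 6 with the block. Ptn, which encodes the midkine relative pleiotrophin, averaged 80.3 ± 2.70 CPM in null and 76.1 ± 8.22 CPM in wild type libraries (SD, n = 3 each; log2 fold change 0.10, SE 0.10), and the groups overlapped. Ptprz1, a receptor phosphatase that binds both factors, had 0.16 (SE 0.13). Itga4, an integrin subunit reported among midkine receptors, had 16.0, 12.02 and 15.6 CPM in null replicates 1, 2 and 3, against 7.34, 6.23 and 8.17 CPM in wild type replicates 1, 2 and 3. Its groups did not overlap, and the difference was 1.02 on the log2 scale (SE 0.18; adjusted p by edgeR 0.126, and 5.58e-05 with the block). Itga4 itself lies on chromosome 2, 5.97 Mb from Sp9.

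Of 12 genes of the BAZ family and ISWI remodellers, 0 were called without and 1 with the block. Unadjusted p was under 0.05 for 0 of them without and 4 with the block. Baz2a, the nearest relative of Baz2b, had a log2 fold change of -0.01 (SE 0.09). Smarca1, an ISWI ATPase gene of the X chromosome, averaged 47.7 ± 10.2 CPM in null and 38.8 ± 8.94 CPM in wild type libraries (SD, n = 3 each), with overlapping groups. Its log2 fold change with the block was 0.32 (SE 0.09, edgeR adjusted p = 0.0259, and 0.903 without the block), a call lost without replicate 2 (0.324) or 3 (0.260) of both genotypes and by DESeq2 with the block (0.427). Of 10 tested inner ring and transmembrane nucleoporin genes and 17 other nucleoporin genes, 0 were called in either fit. Unadjusted p under 0.05 occurred for 0 and 0 of them without the block and for 1 and 4 with it. Nup93, which encodes a scaffold protein of the inner ring, had -0.04 (SE 0.07).

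**Figure D4:**
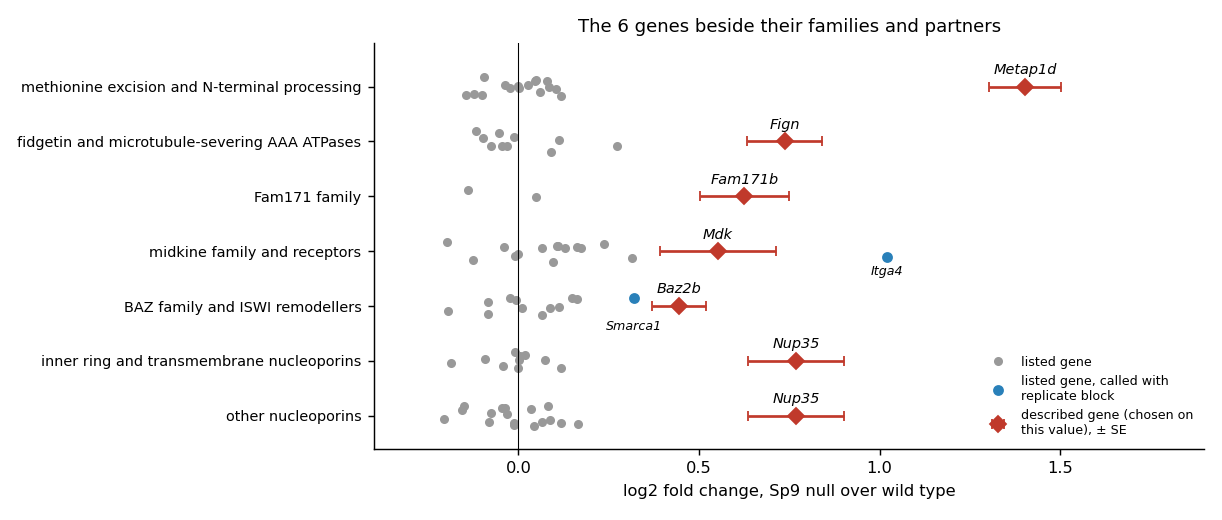
Log2 fold change of Sp9 null over wild type (x axis, edgeR without the block) for the described genes (red diamonds, with SE) and the tested genes of their family and partner lists (dots, spread vertically for legibility, blue where called with the block). Nup35 is drawn beside both nucleoporin lists. The listed genes lie around 0, from -0.21 to 0.32, except Itga4 at 1.02.

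The genes whose levels over the 6 libraries were most like those of the described genes were found by Pearson's r of log2 CPM. The points share the split between the genotypes, so r is a description only. Metap1d was most like Dlx1 (r = 0.994), the predicted Gm29480 (0.993) and Idi2, an isoprenoid pathway gene (0.992), and 55 genes in all had r over 0.95. Fam171b was most like Cacnb2, a calcium channel subunit gene also on chromosome 2 (0.998), Rbl2 (0.988) and Adam23 (0.985). Mdk was most like Asb7 (0.991), Erbb2ip (0.989) and the homeobox gene Dlx2 (0.988). Fign was most like Fgd4 (0.993), Zswim6 (0.992) and Klhl13 (0.992). Baz2b was most like Gm37499 (0.991), Gm29480 (0.991) and Dph6 (0.990), and Nup35 was most like Dgkb (0.988), Arrdc4 (0.985) and Gm26686 (0.984).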

How the data were processed

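The deposited table holds, per the file headers, whole-number read counts and FPKM values per gene for each of the 6 libraries. TopHat, Cufflinks 2.1.1 and the build GRCm38.p4 appear in the submitters' processing notes, while no source here names the counting program. The deposited FPKM equalled the count over 1 fixed length per gene and the library total, within a relative tolerance of 0.001, in 21180 of 21180 genes. The lengths behind the FPKM exceeded the merged exons of GENCODE M21 for all 6 genes (7015 against 4537 bases for Metap1d). Gene coordinates of the 6 genes were identical in both. The number of unused sample columns was 0.

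Counts were tested in edgeR 4.0.16 (R 4.3.3) by the quasi-likelihood test with TMM scaling and its default filter, genotype as the only term, on 14929 genes, two-sided, at a Benjamini-Hochberg adjusted p of 0.05. Standard errors are the log2 fold change over the root of F. Both terms were tested on simulated data. The simulations of the genotype term held no effect of the replicate number, unlike the real libraries. Alternatives used DESeq2 1.42.0, limma 3.58.1 and other scalings and filters. CPM are counts scaled to the library total, and log2 CPM used a prior count of 0.5. Precision is limited by 3 libraries per genotype.

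Deviations from the genotype mean correlated by 0.339, 0.719 and 0.528 between libraries of the same number 1, 2 and 3, over the criterion of 0.1, so the numbers were taken as pairs from the data; the labels do not say what a number marks. Null replicate 3 correlated with wild type replicate 1 by 0.343, and null replicate 1 with wild type replicate 3 by 0.229. Both also exceed the criterion, so it cannot tell whether numbers 1 and 3 mark pairs. The biological coefficient of variation was 0.068 with and 0.171 without the block.

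The genes and lists were chosen with earlier results of these data known. Named were the 6 genes, Sp9, closest relatives and called genes of the lists, the nearest tested genes, overlapping genes, the genes at the 20 Mb limit, genes within it called without the block, and the 3 most alike genes; Metap2, Pdf, Spast, Fam171a2, Ptprz1 and Nup93 were added for their roles after values were seen. The table lists March7 under a date-like symbol, and it was named by its identifier. Overlapping genes with no matched entry in the table were not analysed here. Of 86 listed family genes 84 were in the table and 82 were tested. No sequence was shown for Fam171b, Mdk and Nup35.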

Additional observations from a re-analysis of the deposited data

How the results depend on the processing

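All 6 genes were higher in null libraries under each of the 18 alternatives. They were chosen for this difference, so its direction is a description and nothing is read from it. Log2 fold changes ran from 1.24 to 1.48 for Metap1d, 0.53 to 0.81 for Fign, 0.49 to 0.74 for Fam171b, 0.41 to 0.71 for Mdk, 0.38 to 0.49 for Baz2b and 0.63 to 0.86 for Nup35. The values that moved beyond the spread between replicates were those of Metap1d (1.24) and Fign (0.53) on log2(FPKM + 1), where the pseudocount compresses low values. Sp9 stayed lower, from -4.27 to -3.66.

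Counts of calls depended on the setting. Of the 22 genes called in all, 3 lay within 20 Mb of Sp9 and 0 were listed family genes. Without the filter on low counts there were 65, 13 and 1, by DESeq2 84, 16 and 1, with the replicate block 597, 36 and 2, by DESeq2 with the replicate block 163, 25 and 1, by limma on log2(FPKM + 1) 34 in all, and on log2(FPKM + 0.1) 37 and 5. Leaving out 1 library gave from 2 to 34, 0 to 10 and 0; leaving out 1 replicate number with the block gave 1193, 126 and 219 (numbers 1, 2 and 3), 43, 26 and 24, and 8, 1 and 1. Leaving out replicate 2 of both genotypes without the block, an alternative chosen after seeing the data, gave 89, 21 and 1. Of the 6 genes, 1 was called without the block, 5 by DESeq2, 0 without wild type replicate 1, 3 without null replicate 2 and 6 without replicate 2 of both genotypes. Over all genes, the same settings called 22, 84, 2, 34 and 89. Because this contrast chose the 6 genes, nothing is read from how many of them were called. The replicate number was called for 1542 genes by DESeq2, against 3409. The cause was not tested.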
